A study of Homo sapiens with 40 samples.

Results

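The genes described are those of fatty acid oxidation and ketone body metabolism, chosen by function: 37 gene names covering the uptake and activation of fatty acids, the carnitine shuttle, the mitochondrial and peroxisomal oxidation spirals, the auxiliary enzymes for unsaturated fatty acids, electron transfer, ketone body enzymes, and the receptor PPARA with 2 of its target genes. They were taken from 56568 gene names in the deposited tables. Hepatocytes oxidise long-chain fatty acids after coupling them to coenzyme A and passing them through the carnitine shuttle into mitochondria, where each turn of the spiral releases acetyl-CoA. Very long and branched chains are shortened in peroxisomes. In fasting, part of the acetyl-CoA leaves the liver as ketone bodies, and many of these genes are targets of the nuclear receptor PPARα. Dioxin-like chemicals act through another receptor, the aryl hydrocarbon receptor, and lipid accumulation in liver is among their known effects.

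RNA was sequenced from differentiated HepaRG cells, a human hepatic line whose cultures hold hepatocyte-like cells and primitive biliary cells. Cells were exposed for 6 days, from day 8 to day 14, in Williams' E medium with serum and dimethyl sulfoxide, which the solvent control shared. The 8 groups of 5 libraries were the control, PCB 126 (a dioxin-like polychlorinated biphenyl) at 100 pM, 10 nM and 1 µM, the herbicide glyphosate at 10 µg/L, at 1 mg/L or at 0.1 g/L, and Roundup, a commercial herbicide that contains it, at 10 µg/L. The same 5 control libraries served all 7 comparisons, so these comparisons are not independent. The labels do not say whether the libraries of a group came from separate cultures, and p-values measure only the spread between these libraries. All cells were of 1 line. Values are FPKM, in which mapped fragments are divided by transcript length and library size, and are summed over the transcripts of each gene. FPKM hold no read counts, so no counting error is given, and read totals are not used here. In bulk RNA, fewer cells of a type and less RNA per cell cannot be told apart.

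The exposure was visible in CYP1A1, a target gene of the aryl hydrocarbon receptor, at 2.33 ± 3.40 FPKM (SD, n = 5) in control and 235 ± 108 at 1 µM PCB 126 (log2 fold change 6.61, limma adjusted p = 7.44e-05). The 20 hepatocyte markers summed to 24463 ± 4533 FPKM in control and 12755 ± 4089 at 1 µM, where 4 were lower and 1 higher by limma, with 1.87% of all genes called in either direction. Of these sums, ALB alone gave 11206 ± 1483 and 5570 ± 2084. The fold changes of these 20 markers were negative in 16 and positive in 4. The 12 biliary and progenitor markers summed to 446 ± 111 and 258 ± 53.2, of which KRT19 alone gave 303 ± 85.6 and 164 ± 39.2. Of these 12 markers, 6 were tested and 0 called, with 4 fold changes negative and 2 positive. MUC1 was higher, at 1.28 ± 0.46 and 4.42 ± 1.98. The 8 markers of leukocytes, endothelium and stellate cells summed to 10.2 ± 5.03 and 5.52 ± 1.48, with 3 tested and 0 called. A total of 5 treated libraries, 1 each at 10 nM and 1 µM PCB 126, at 10 µg/L and 0.1 g/L glyphosate and in Roundup, stood apart with low values over the whole library. The median member gene was also low in these libraries. Relative to the control mean on the log2 scale, it ran from −0.95 in 1 µM replicate 1 to 0.37 over the 40 libraries. It did not follow the library's 75th percentile throughout. In 10 nM replicate 5 the median member was at −0.56 and the percentile at −0.08, and in 100 pM replicate 5 they were at 0.02 and −0.40. The part of these shifts in the results for members was not tested, and values without these libraries or on a scale relative to the library stand beside the results they change.

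In control cells every step of the pathway was expressed. ACADVL, the very-long-chain acyl-CoA dehydrogenase that opens the mitochondrial spiral, had the highest FPKM of the set at 102 ± 25 (SD, n = 5). HADHB, the β-subunit of the mitochondrial trifunctional protein, followed at 71.0 ± 15.2, and ETFB, a subunit of the electron transfer flavoprotein that takes electrons from the dehydrogenases, at 61.1 ± 10.4. The ranges of these neighbours in the order overlapped. ACOX2, a peroxisomal oxidase of bile acid precursors, was lowest at 0.877 ± 0.634, and next came ANGPTL4, a secreted inhibitor of lipoprotein lipase, at 1.64 ± 0.739, and ACADL, the long-chain dehydrogenase, at 2.13 ± 0.570. The liver form of carnitine palmitoyltransferase, CPT1A, was at 21.7 ± 4.55 FPKM, while the muscle form CPT1B was at 2.37 ± 0.662.

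Grouped by role, the later steps of the mitochondrial spiral (ECHS1, HADH, HADHA, HADHB and ACAA2) took 22.8% ± 2.33 of the summed FPKM of the 37 genes in control. The acyl-CoA dehydrogenases took 15.2% ± 1.35, fatty acid uptake and activation 13.2% ± 1.43, peroxisomal oxidation 13.1% ± 0.735, the auxiliary enzymes for unsaturated fatty acids 12.9% ± 1.11 and the electron transfer flavoprotein with its dehydrogenase 12.6% ± 0.806. The carnitine shuttle, which gates entry into mitochondria, took 4.57% ± 0.50, the ketone body enzymes ACAT1 and BDH1 4.49% ± 0.411, and PPARA with PDK4 and ANGPTL4 1.15% ± 0.304. At 1 µM PCB 126 the later spiral steps took 23.3% ± 1.78 and the dehydrogenases 16.1% ± 1.19. Both lay within 1 SD of the control mean, and the ketone body enzymes lay below it at 3.92% ± 0.417.

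**Figure D1:**
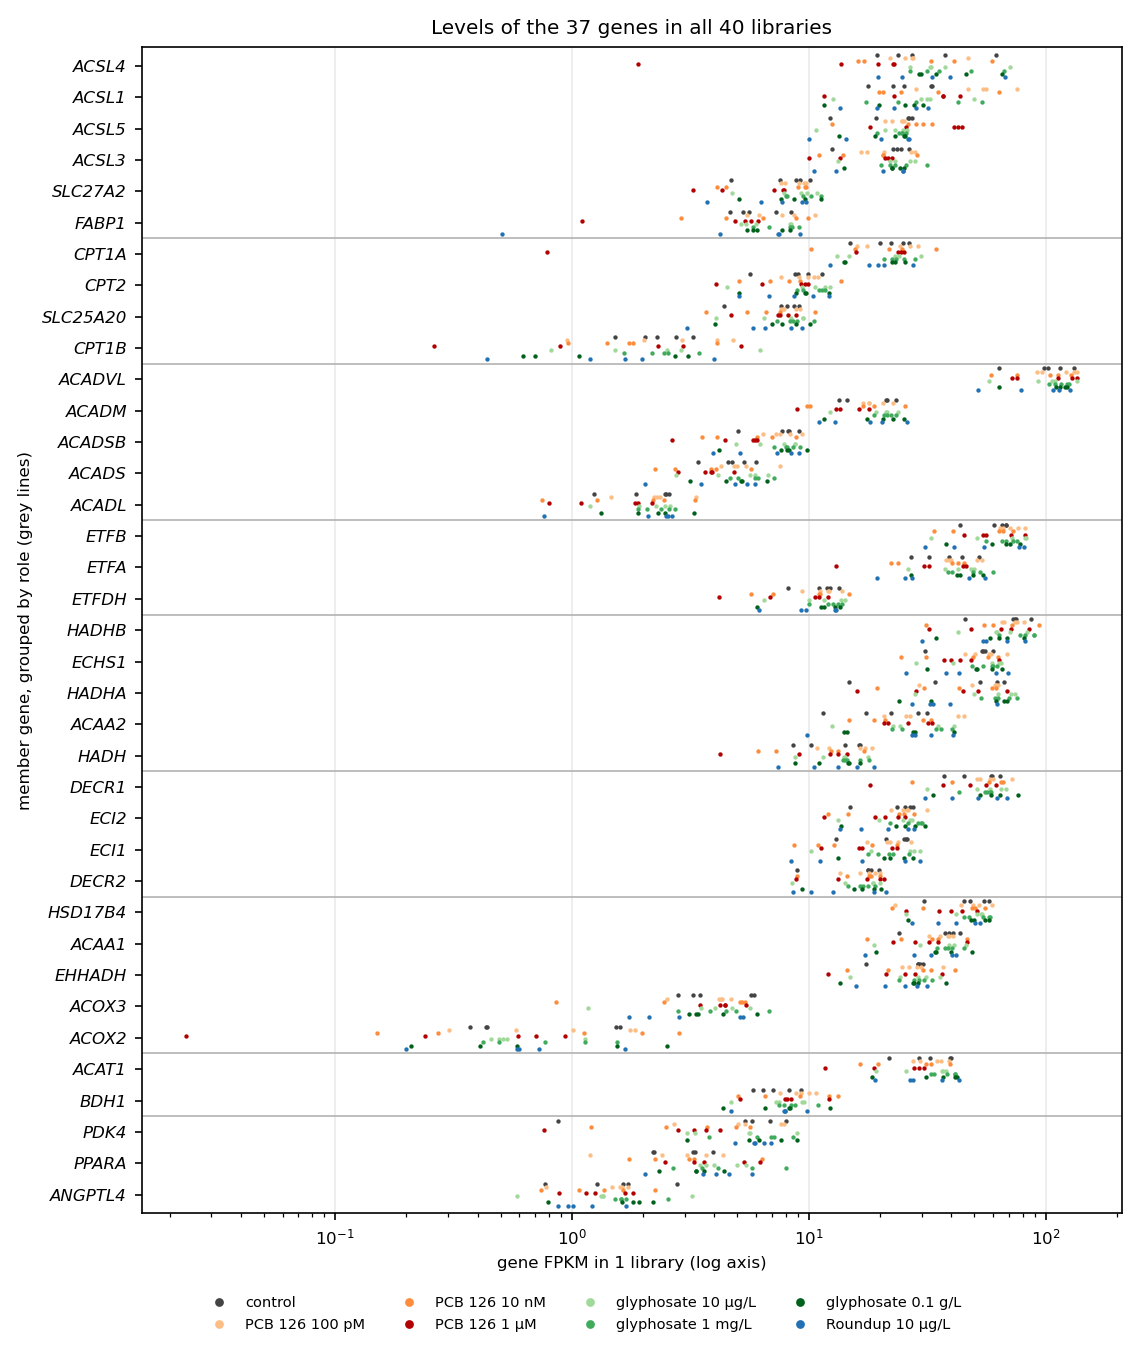
FPKM of the 37 genes (rows, grouped by role) on a log axis, with each point 1 of 40 libraries and its colour the treatment group. CPT1A lay at 14.9 to 26.5 in the 5 control libraries and at 0.782 in the lowest 1 µM PCB 126 library.

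The question of the design was whether 6 days of PCB 126, glyphosate or Roundup changed these genes relative to control. Of the 37 genes, 34 passed the filter of the test, an FPKM variance over 1 among the libraries in its table, and ACADL, ACOX2 and ANGPTL4 did not. By limma on log2(FPKM + 1), with Benjamini-Hochberg adjustment over all genes and a threshold of 0.05, 0 of 34 members were called in any of the 9 comparisons made. Over all genes, 0% were called at 100 pM, 0.205% at 10 nM and 1.87% at 1 µM PCB 126, 3.7% in a trend over the PCB 126 dose steps, and 0% in each glyphosate dose, in Roundup, and in Roundup against glyphosate at 10 µg/L. At an unadjusted p under 0.05 there were 1 member at 100 pM (ACSL1), 1 at 10 nM (ECI1), 2 at 1 µM (ACSL4 and ACADSB), 2 in the trend (the same 2 genes) and 0 in the other 5 comparisons, against 116, 473, 1322, 1819 and 84 to 165 of all genes.

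The median change of the members was close to that of all genes tested. The members' median log2 fold change was 0.13 at 100 pM PCB 126 (0.07 over all genes tested), −0.18 at 10 nM (−0.21) and −0.25 at 1 µM (−0.26). It was 0.02 at 10 µg/L glyphosate (−0.04), 0.21 at 1 mg/L (0.14), 0.01 at 0.1 g/L (−0.01) and −0.16 in Roundup (−0.18). Fold changes were negative in 28 of 34 members and 83.3% of all genes at 10 nM, in 26 of 34 and 79.2% at 1 µM and in 29 of 34 and 86% in Roundup, and positive in 33 of 34 and 83.9% at 1 mg/L glyphosate. With libraries scaled to their 75th percentile the medians at 1 µM were −0.10 for the members and −0.12 for all genes.

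**Figure D2:**
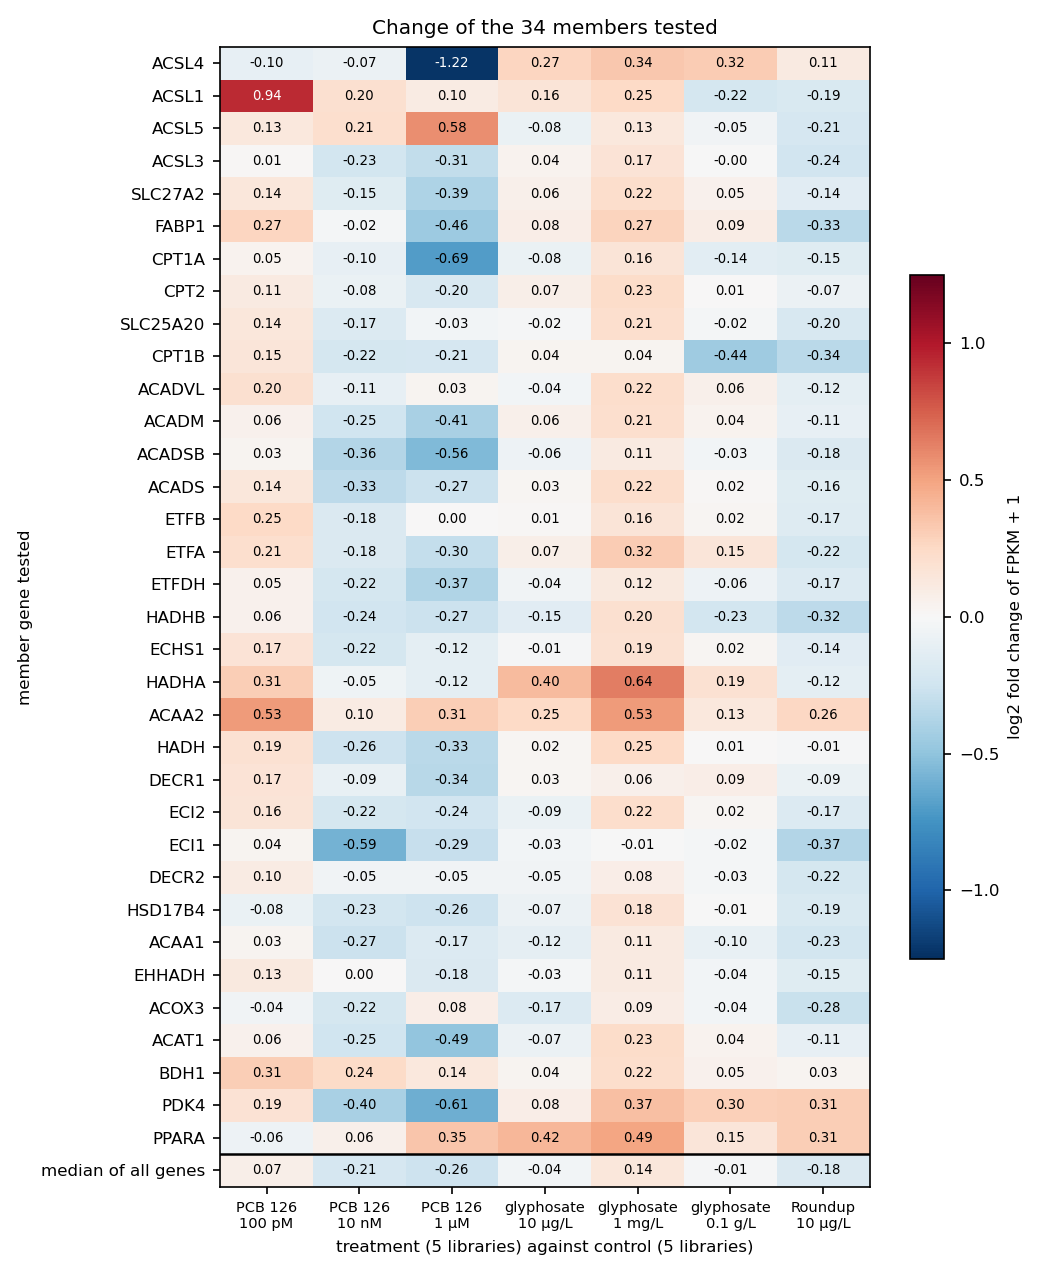
Fitted log2 fold change (FPKM + 1) of the 34 members tested, 1 row per gene and 1 column per treatment, each against the 5 control libraries, with the median of all genes tested in the last row. Most cells of a column share a shade near that of the last row, and ACSL4 at −1.22, ACSL1 at 0.94 and CPT1A at −0.69 stand out in PCB 126.

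At 1 µM PCB 126, ACSL5 took a larger and ACADSB a smaller share of the summed FPKM of the members than in any control library. With 1 of 34 members on each side, this is near or below the share of all genes given with each, and neither passed after adjustment. ACSL5 (chr10:112374018-112428380, + strand, GRCh38) is a long-chain acyl-CoA synthetase. Its FPKM were 26.2, 26.6, 27.3, 19.2 and 12.3 in control and 18.1, 44.5, 42.6, 41.3 and 25.7 at 1 µM. Of the 1 µM libraries, 3 lay above every control and the other 2 within the control range, and the lowest was replicate 1, a library with low values in general. The log2 fold change was 0.58 (SE 0.29), with a limma adjusted p of 0.386.

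As a share of the summed FPKM of all members in the same library, ACSL5 took 2.48%, 2.77%, 2.95%, 2.07% and 2.09% in control. At 1 µM it took 3.44%, 4.69%, 5.09%, 3.88% and 3.91%. All 5 treated libraries thus lay above all 5 controls, and the means were 4.20% ± 0.672 and 2.47% ± 0.395 (2-sided exact permutation test, p = 0.00794, the smallest that 5 against 5 can give, and 0.411 after adjustment over the 259 tests of members and treatments). At 10 nM the share was 3.21% ± 0.705, which overlapped control (exact permutation p = 0.0714), and in the other 5 treatments its mean lay between 2.30% and 2.40%. ACSL5 was the 1 of 34 members above all controls on this scale, where 2.44% of all genes, divided by the same sum, were above. With libraries scaled to the 75th percentile, ACSL5 passed the test (0.74, limma adjusted p = 0.0042), the 1 member of 34 called at a rate of 6.73% over all genes. Its change reversed to −0.16 when each gene was represented by its most abundant transcript alone.

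The transcripts of ACSL5 differed from each other in their change. The gene's FPKM in control lay mainly in ENST00000354273 (13.1 ± 5.23) and ENST00000356116 (7.47 ± 4.93), whose annotated starts differ by 1 base and whose split between libraries varied widely. ENST00000354655, which was singled out after its values were seen, starts 2181 bases upstream of ENST00000354273. It spans chr10:112374018-112428376 in 21 exons. The 250 bases before the start of this upstream transcript and before that of ENST00000354273 are shown as the sequence directly before each of these starts (hg38, + strand, 5′ to 3′, at chr10:112373768-112374017 and chr10:112375949-112376198). All letters are lower case, as neither window holds GCGTG on either strand, the core of the response element of the aryl hydrocarbon receptor, which would be in capitals.
ACSL5 ENST00000354655: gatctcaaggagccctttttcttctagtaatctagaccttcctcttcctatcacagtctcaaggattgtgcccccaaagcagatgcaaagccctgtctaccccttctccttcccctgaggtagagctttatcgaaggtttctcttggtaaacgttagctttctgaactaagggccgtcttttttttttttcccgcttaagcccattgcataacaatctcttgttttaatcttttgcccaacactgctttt
ACSL5 ENST00000354273: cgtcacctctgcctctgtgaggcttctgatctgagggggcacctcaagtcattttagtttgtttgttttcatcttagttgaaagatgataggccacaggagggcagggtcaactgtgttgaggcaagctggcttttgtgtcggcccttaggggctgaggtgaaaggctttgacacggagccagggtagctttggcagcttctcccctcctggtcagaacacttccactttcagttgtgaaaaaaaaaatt

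The upstream transcript ENST00000354655 was listed at 1.33, 0.151, 0.0497, 1.41 and 0 FPKM in control. It was at 3.64, 2.85, 0, 0.524 and 2.86 at 100 pM and at 6.04, 3.24, 0.778, 3.14 and 5.38 at 10 nM. At 1 µM it was at 17.3, 4.86, 14.0, 14.0 and 5.00. The control and 1 µM libraries did not overlap, and the values at the lower doses lay between, overlapping both the control and, at 10 nM, the 1 µM range. The share of all transcripts without such an overlap was not computed. The separation of this transcript, singled out after its values were seen, thus has no background to be judged against. The log2 fold change at 1 µM was 2.88 (SE 0.49, limma adjusted p = 0.00614 over all transcripts), and the slope per dose step was 0.94 (SE 0.16, adjusted p = 0.00316). At 10 nM the change of 1.54 did not pass (limma adjusted p = 0.693).

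Of 82 member transcripts tested, ENST00000354655 was the 1 called at 1 µM and the 1 called in the trend, where 0.552% and 0.906% of all transcripts were called. It held 2.64% ± 3.37 of the FPKM of ACSL5 in control and 38.5% ± 33.3 at 1 µM. There replicate 1 stood at 95.6% and the other libraries at 10.9% to 34%. The exact permutation p was 0.00794, and 0.0556 after adjustment over 14 tests. Those 14 tests were all of this transcript, which was picked from the 82 after its values were seen. The adjustment leaves out that choice, so no conclusion is drawn from it. In the glyphosate groups ENST00000354655 reached at most 3.36 FPKM and in Roundup 0.0251. FPKM of overlapping transcripts are estimated jointly, so the division of reads among the transcripts of ACSL5 is less certain than their sum.

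**Figure D3:**
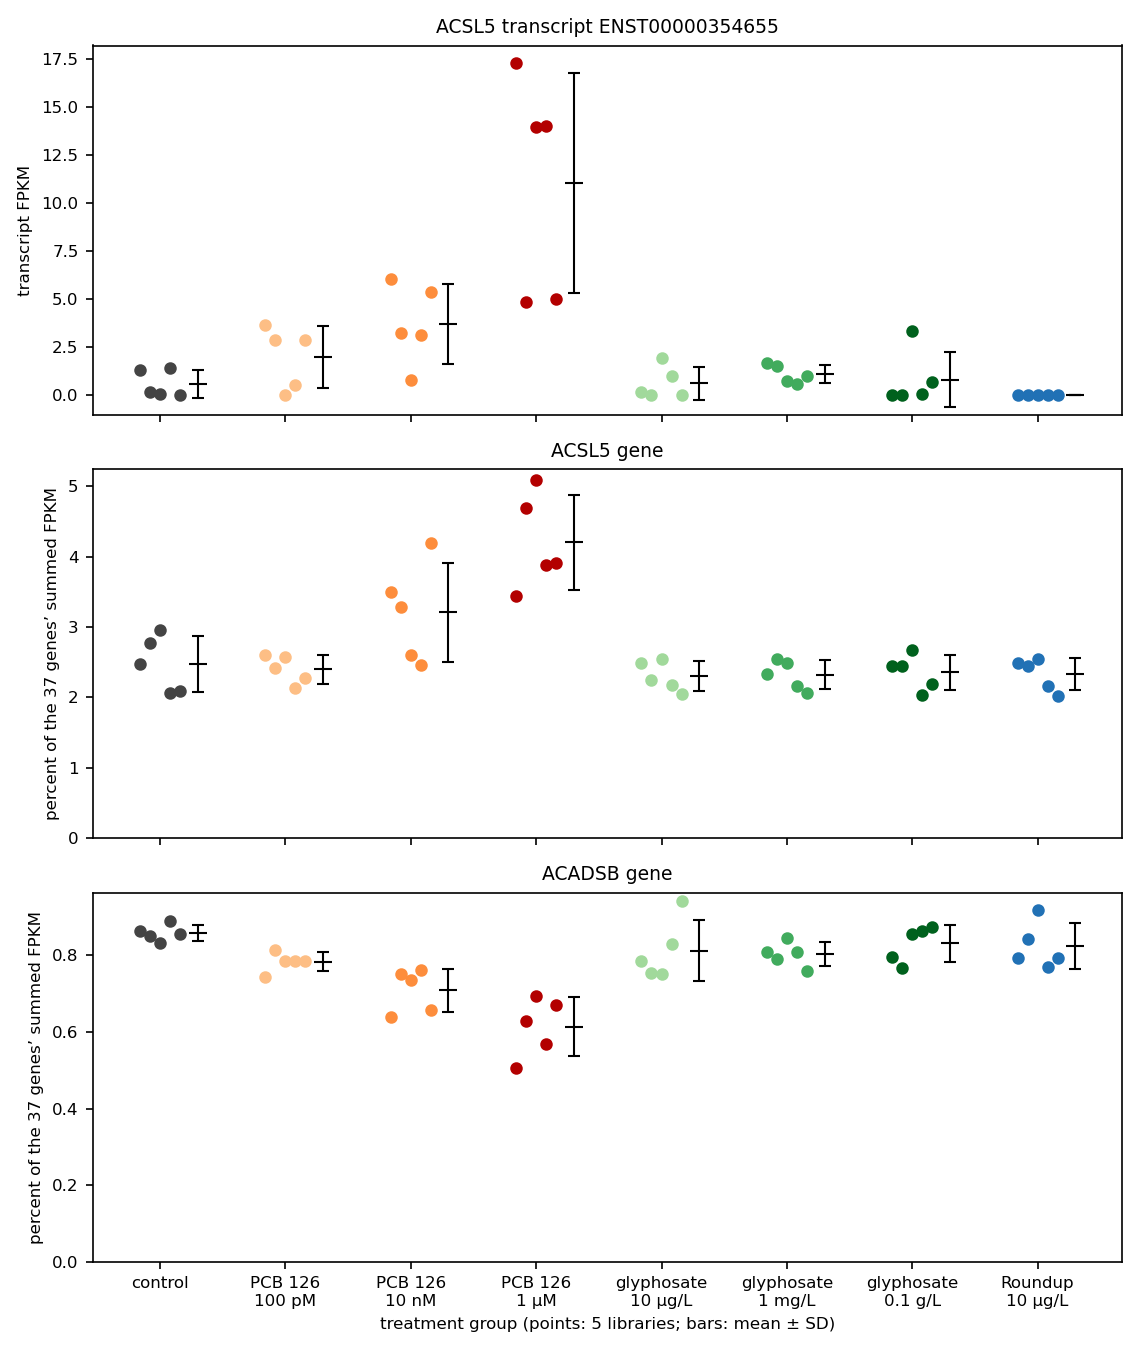
FPKM of the upstream ACSL5 transcript, and ACSL5 and ACADSB as a percentage of the summed FPKM of the 37 genes, by treatment group, with points for the 5 libraries and bars for mean ± SD. At 1 µM PCB 126 the ACSL5 share (3.44% to 5.09%) lies above, and the ACADSB share (0.505% to 0.694%) below, every control library.

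ACADSB (chr10:123008979-123058311, + strand) encodes the short/branched chain acyl-CoA dehydrogenase, which acts in isoleucine breakdown. Its change was opposite in sign to that of ACSL5. Its FPKM were 9.11, 8.18, 7.71, 8.27 and 5.03 in control and 2.65, 5.95, 5.81, 6.05 and 4.41 at 1 µM, where only control replicate 5 lay within the 1 µM range (log2 fold change −0.56, SE 0.25, limma adjusted p = 0.33). It passed with quantile normalization (−0.32, limma adjusted p = 0.03005) and when library size was a term of an ordinary linear model (−0.30, adjusted p = 0.0344).

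Its share of the member sum was steady in control at 0.863%, 0.851%, 0.833%, 0.889% and 0.857%. It averaged 0.783% ± 0.0252 at 100 pM, 0.709% ± 0.0564 at 10 nM and 0.614% ± 0.0773 at 1 µM. At each of the 3 doses all libraries lay below all controls (exact permutation p = 0.00794 each, adjusted 0.411). Of 34 members, ACADSB was 1 of 1 below all controls at 100 pM, 1 of 2 at 10 nM with ECI1, and 1 of 1 at 1 µM, where 0.625%, 3.18% and 6.64% of all genes divided by the same sum were below. In the herbicide groups the mean share was 0.803% to 0.831%. When unnamed transcripts (described next) were added to the sum, the 100 pM libraries overlapped control (exact permutation p = 0.0238), while 10 nM and 1 µM did not.

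Some of the widest differences in this gene set involved transcripts without a gene name. The authors' assembly holds transcripts that lie in the locus of a gene, on its strand, with no name, and a sum by gene name leaves them out. Of the 37 members, 18 had such transcripts, 40 in all, and 9 had a library in which they held over 50% of the FPKM of the locus. HADHA (chr2:26190635-26244726, − strand), the α-subunit of the trifunctional protein, was at 67.1, 14.8, 62.5, 52.9 and 34.3 FPKM in control. In replicate 2, the lowest, a further 60.8 FPKM lay in an unnamed transcript, which was at 0 in the other 4 control libraries, so that the locus came to 75.6 and was the highest of the 5. Unnamed HADHA FPKM were also listed in 100 pM replicate 2 with 31.6, in 10 nM replicate 2 with 46.0, in 1 µM replicate 3 with 45.2, in 0.1 g/L glyphosate replicate 5 with 38.3 and in Roundup replicates 1 and 3 with 27.1 and 20.3.

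HADHA and HADHB encode the subunits of 1 enzyme complex and are transcribed in opposite directions, with RefSeq starts 307 bases apart on chromosome 2 (26244632 on the − strand and 26244939 on the + strand). The windows of 250 bases before these RefSeq starts overlap. They hold the starts of the most abundant deposited transcripts, 26244726 for HADHA and 26244748 for HADHB, so part of each window is transcribed. The windows are shown since they are the region the pair shares (RefSeq, GRCh38.p14, each 5′ to 3′ on its own strand, at chr2:26244633-26244882 and chr2:26244689-26244938, lower case as neither holds GCGTG).
HADHA: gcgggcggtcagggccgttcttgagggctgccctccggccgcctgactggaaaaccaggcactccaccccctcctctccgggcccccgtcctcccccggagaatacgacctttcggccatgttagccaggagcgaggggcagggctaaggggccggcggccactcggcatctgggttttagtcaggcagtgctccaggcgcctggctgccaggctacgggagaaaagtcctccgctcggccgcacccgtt
HADHB: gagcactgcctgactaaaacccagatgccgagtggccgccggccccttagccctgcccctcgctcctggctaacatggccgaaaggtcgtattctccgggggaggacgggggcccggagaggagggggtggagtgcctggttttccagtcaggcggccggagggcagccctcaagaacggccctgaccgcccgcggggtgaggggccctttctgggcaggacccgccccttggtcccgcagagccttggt

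Over the 40 libraries, log2(FPKM + 1) of HADHA and HADHB correlated with Pearson's r = 0.47 by named transcripts and 0.87 with the unnamed transcripts added, as a description of libraries that share their depth. The median over all pairs of the 34 members was 0.67, taken by name only. With the unnamed transcripts added, CPT1A correlated with DECR1 at r = 0.86, with ACAT1 at 0.85 and with ETFDH at 0.82. A value near 0.87 was thus not particular to HADHA and HADHB. For ETFA and ETFB, the subunits of the electron transfer flavoprotein, r was 0.67 by name and 0.68 with the unnamed transcripts. HADHA had the largest change of any member at 1 mg/L glyphosate, 0.64 (SE 0.35, limma adjusted p = 0.963), and that became 0.19 (adjusted p = 0.933) with the unnamed transcript.

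ACSL1 (chr4:184755595-184826818, − strand), the main long-chain acyl-CoA synthetase of liver, had the largest change of any member at 100 pM PCB 126. Named transcripts gave 33.3, 32.9, 25.3, 22.6 and 17.7 FPKM in control and 47.0, 54.6, 28.5, 76 and 56.2 at 100 pM, where 4 of 5 libraries lay above every control (log2 fold change 0.94, SE 0.35, limma adjusted p = 1, exact permutation p = 0.0238, adjusted 0.988). The unnamed transcripts of the locus ran the other way, at 29.6, 31.1, 36.2, 43 and 17.6 in control and 5.87, 8.20, 28.6, 4.47 and 10.9 at 100 pM. Together the locus was at 57.9 ± 12.7 in control and 64.1 ± 10.6 at 100 pM, and the log2 fold change was 0.16 (SE 0.30, limma adjusted p = 1, exact permutation p = 0.508). Named and unnamed transcripts of ACSL1 thus moved in opposite directions, and the difference for the whole locus did not exceed the spread between libraries.

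ACSL4 (chrX:109624244-109733403, − strand), a synthetase that prefers arachidonic acid, had the largest change at 1 µM. Named transcripts gave 61.8, 27.3, 19.3, 37.5 and 23.7 FPKM in control and 1.89, 22.9, 13.6, 22.7 and 19.6 at 1 µM (log2 fold change −1.22, SE 0.46, limma adjusted p = 0.217, exact permutation p = 0.0397, adjusted 0.988). The groups overlapped, and replicate 1 was far below the rest. Unnamed transcripts held a median of 62.6% of the locus over the libraries. With them the locus was at 77.8 ± 19.3 in control and 55.5 ± 22.1 at 1 µM, and the change was −0.55 (SE 0.31, limma adjusted p = 0.399).

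**Figure D4:**
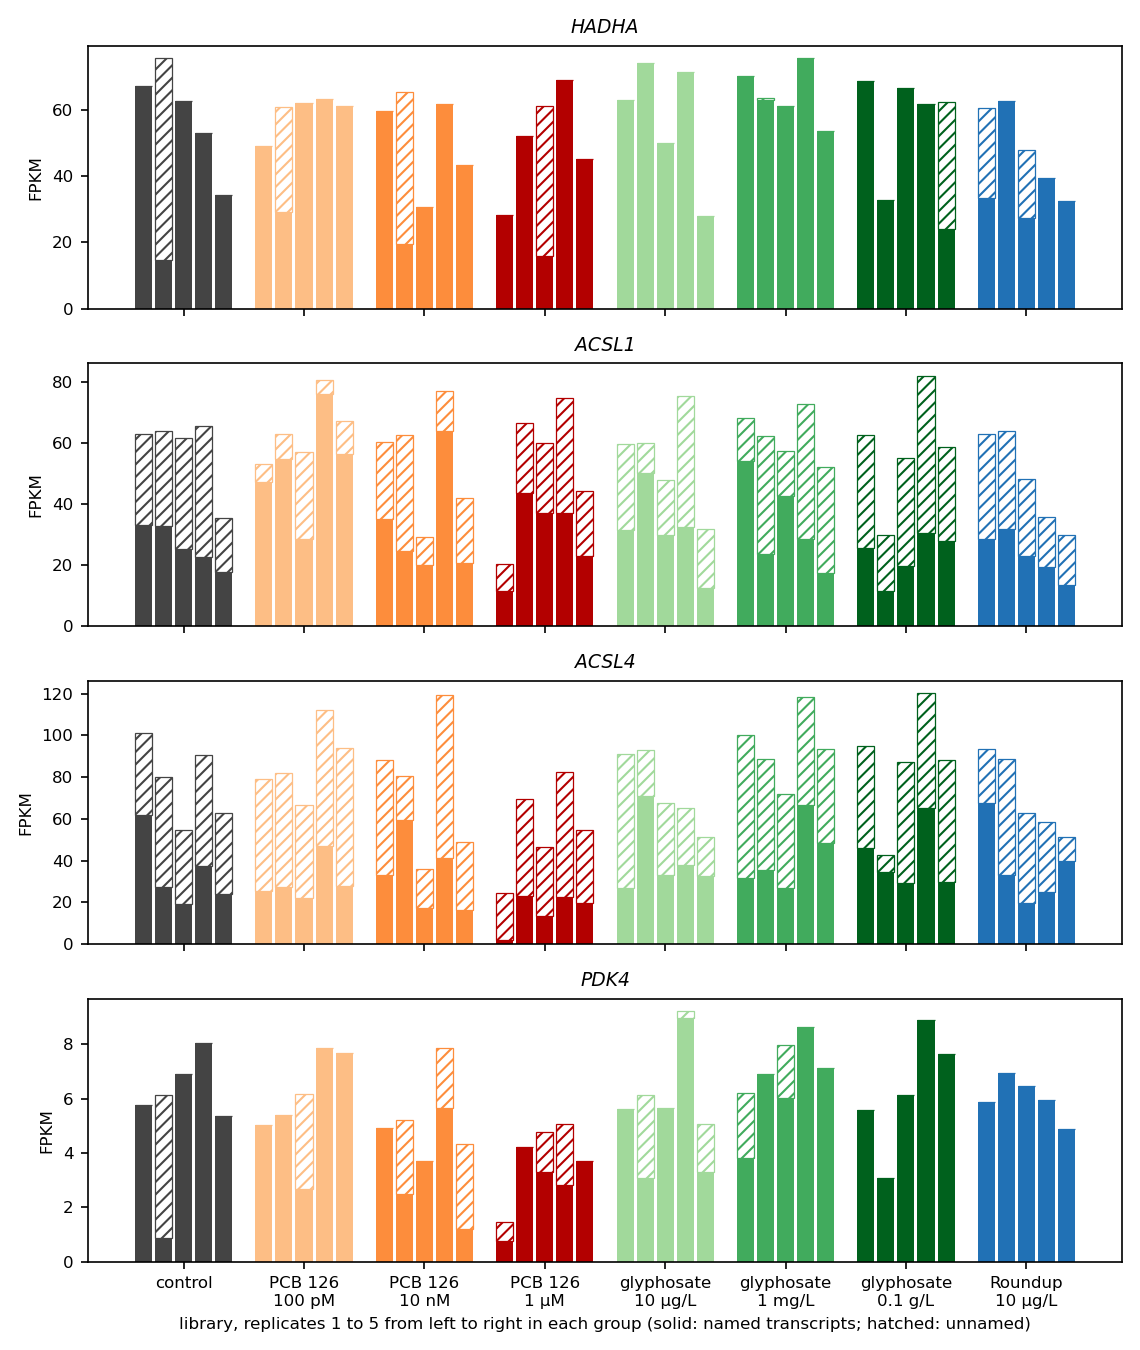
FPKM of the HADHA, ACSL1, ACSL4 and PDK4 loci in each of the 40 libraries, with named transcripts solid and unnamed ones hatched, stacked. The unnamed part fills the gap in HADHA control replicate 2 (14.8 named and 60.8 unnamed) and is smaller in ACSL1 at 100 pM than in control.

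PDK4 (chr7:95583499-95596491, − strand), a kinase that shuts off pyruvate dehydrogenase when fat is burned and a PPARα target, did not overlap between control and 1 µM once the unnamed transcripts were counted. By name it was at 5.75, 0.870, 6.89, 8.06 and 5.36 FPKM in control and 0.761, 4.21, 3.29, 2.80 and 3.70 at 1 µM (log2 fold change −0.61, SE 0.39, limma adjusted p = 0.499). Control replicate 2 held a further 5.25 unnamed FPKM. The locus was then at 5.75, 6.12, 6.89, 8.06 and 5.36 in control and at 1.44, 4.21, 4.78, 5.05 and 3.70 at 1 µM, so every treated library lay below every control (exact permutation p = 0.00794, adjusted over 259 tests 0.998). The change was −0.68 (SE 0.25, limma adjusted p = 0.157). PDK4 was the 1 of 34 members below all controls in that table, where 1.99% of all genes were, a share close to that of the members.

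With unnamed transcripts added, 0 of 34 members were called by limma at 1 µM or in the trend, with 3.5% and 5.7% of all genes called. With scaling to the 75th percentile as well, 2 of 32 members tested were called at 1 µM, ACSL5 (0.75, limma adjusted p = 0.00131) and PPARA (0.45, limma adjusted p = 0.0182), at a rate of 11.5% over all genes. In the trend 4 of 32 were called, ACSL5 and PPARA upward and ACADSB and PDK4 downward, at 15% over all genes. Without the unnamed transcripts, the scaled trend called 2 of 34, with 9.85% of all genes. The shares of members were below those of all genes in each of these settings.

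On the FPKM scale by gene name, 0 of 34 members had all 1 µM libraries above, or all below, the control libraries, where 0.707% and 1.64% of all genes did. CPT1A (chr11:68754620-68844410, − strand), the gate of the carnitine shuttle that malonyl-CoA inhibits, was at 20.0, 26.5, 25.1, 22.3 and 14.9 FPKM in control and 0.782, 24.6, 23.9, 25.3 and 15.8 at 1 µM. Apart from replicate 1, in which 5.53 unnamed FPKM lay at the locus, the 1 µM libraries lay within the control range. The log2 fold change was −0.69 (SE 0.50, limma adjusted p = 0.537), −0.30 with the unnamed transcripts and 0.0447 without replicate 1. CPT2, the inner-membrane partner, was at 8.96 ± 2.13 in control and 7.85 ± 2.56 at 1 µM, a change of −0.20. The members whose log2(FPKM + 1) was most like that of CPT1A over the 40 libraries were DECR1 (r = 0.78), ETFDH (0.78) and ACAT1 (0.76).

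The dehydrogenases ACADVL and ACADM, for very long and medium chains, changed by 0.03 and −0.41 at 1 µM, with ACADM at 18.8 ± 4.47 FPKM in control and 13.9 ± 3.46 at 1 µM. The bifunctional enzymes of peroxisomes, EHHADH and HSD17B4, changed by −0.18 and −0.26. ACAT1, the thiolase at the start of ketone body synthesis and at the end of their use, was at 32.6 ± 7.50 and 23.7 ± 8.10 (−0.49, limma adjusted p = 0.445), and BDH1, which interconverts the ketone bodies, at 7.36 ± 1.39 and 8.36 ± 2.54 (0.14). FABP1, the fatty acid binding protein of liver, was at 6.25 ± 1.56 and 4.63 ± 2.03 (−0.46), with replicate 1 at 1.10 and the others at 4.88 to 6.11. None of these passed the test, and in each the ranges of the groups overlapped.

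At 10 nM the largest change was in ECI1, a mitochondrial isomerase needed for unsaturated fatty acids. It was at 25.6, 26.1, 25.3, 21.3 and 13.0 FPKM in control and 18.5, 11, 8.66, 23.6 and 12.8 at 10 nM, with overlapping groups (−0.59, SE 0.27, limma adjusted p = 0.865). As a share of the member sum it was at 2.48% ± 0.241 and 1.81% ± 0.362 with no overlap (exact permutation p = 0.00794, adjusted 0.411), and at 1 µM the groups overlapped. The other large changes at 10 nM were −0.40 in PDK4, −0.36 in ACADSB, −0.33 in ACADS and −0.27 in ACAA1. At 100 pM they were 0.53 in ACAA2, 0.31 in HADHA, 0.31 in BDH1 and 0.27 in FABP1.

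In the herbicide groups the largest changes were small relative to their errors. PPARA (chr22:46150521-46243756, + strand), the receptor that switches on much of the pathway, was at 3.31, 3.96, 2.22, 3.24 and 2.20 FPKM in control and 3.99, 3.47, 4.98, 5.41 and 3.67 at 10 µg/L glyphosate (0.42, limma adjusted p = 1, exact permutation p = 0.0397, adjusted 0.988). Of the 5 treated libraries, 2 lay within the control range, and unnamed transcripts held a median of 66.8% of the locus. With them the locus was at 10.1 ± 2.75 in control and 9.69 ± 2.52 at 10 µg/L.

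At 10 µg/L glyphosate the next changes were 0.40 in HADHA, 0.27 in ACSL4, 0.25 in ACAA2 and −0.17 in ACOX3. At 1 mg/L, after HADHA, they were 0.53 in ACAA2, 0.49 in PPARA, 0.37 in PDK4 and 0.34 in ACSL4. At 0.1 g/L they were −0.44 in CPT1B, 0.32 in ACSL4, 0.30 in PDK4, −0.23 in HADHB and −0.22 in ACSL1. In Roundup they were −0.37 in ECI1, −0.34 in CPT1B, −0.33 in FABP1, −0.32 in HADHB and 0.31 in PDK4. For FABP1 in Roundup, replicate 4 was at 0.509 by name with 7.38 unnamed FPKM at the locus. CPT1B shares its assembled locus with CHKB and the readthrough gene CHKB-CPT1B, and the division of reads among them is uncertain.

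Roundup and glyphosate at the same labelled dose of 10 µg/L were also compared with each other. The largest differences, Roundup less glyphosate, were −0.52 in HADHA, −0.42 in FABP1 and −0.37 in CPT1B (limma adjusted p = 0.974 for HADHA). HADHA was at 33.5, 62.5, 27.4, 39.5 and 32.5 FPKM in Roundup and 62.9, 74.1, 49.9, 71.2 and 28.0 in glyphosate, and Roundup replicates 1 and 3 were those with unnamed FPKM at the locus.

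Upstream sequence was searched over all members. Of the 37 genes, 30 had entries in the RefSeq promoter table (43 windows of 250 bases before a start, GRCh38.p14). GCGTG, on either strand, was in 17 of the 43 windows (39.5%) and in 32.2% of 35116 windows of all genes. The letters AGGTCANAGGTCA, a direct repeat of the kind PPARα binds, were in 0 of the 43 and in 0.017% of all windows. These are matches of letters in short windows.

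The wider pathway was described by 76 other genes of lipid oxidation, transport and its regulation, of which 55 were tested. At 1 µM 3 of the 55 were lower and 0 higher, and in the trend 6 were lower and 0 higher, where 1.87% and 3.7% of all genes were called in either direction. The lower genes included PPARGC1A, a coactivator of PPARα, at 6.50 ± 2.36 FPKM in control and 1.54 ± 0.658 at 1 µM (−1.54, SE 0.28, limma adjusted p = 0.00268), and ACSM3, a medium-chain acyl-CoA synthetase, at 8.39 ± 2.97 and 2.69 ± 2.48 (−1.65, limma adjusted p = 0.038). Of 24 genes of the mitochondrial citric acid cycle, 0 were called at 1 µM or in the trend by limma, with 5 and 6 at an unadjusted p under 0.05, against 1322 and 1819 of 9755 genes. At 1 µM 4 of the 20 hepatocyte markers were lower and 1 was higher, and their part in these values was not tested.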

How the data were processed

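Total RNA was depleted of ribosomal RNA and made into directional libraries. The authors used HISAT2 for alignment to GRCh38 and StringTie for assembly and quantification, and deposited FPKM for 234960 transcripts per library, in a PCB 126 table of 20 libraries and a glyphosate table of 25, with the same 5 controls in both. Replicates were not pooled. Deposited columns that held values below 0 were recorded as a score for that reason, the 4 and 6 such values were set to 0, and the columns were then used as FPKM. FPKM were summed per gene name. Of the transcripts, 35782 carry no gene name. Genes with a variance of FPKM above 1 (9755 and 9533) were tested on log2(FPKM + 1) with limma 3.58.1 in R 4.3.3, with 1 fit per table over its groups, Benjamini-Hochberg adjustment, and a threshold of 0.05. Fold changes of low genes are understated by the added 1. Single genes were compared by 2-sided exact permutation tests over 252 splits. Python 3.11.15 was used for the other steps.

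The members, the other gene lists and the tests were chosen with earlier results of these data known. Genes were named if called, if among the 5 largest changes of a comparison with control, if among 14 central members, or if near 0 FPKM in all groups. The labels give no replicate numbers, and replicates were numbered in accession order as names only. Alternatives included other filters, scalings and models, a pseudocount of 0.1 and the omission of libraries. Unnamed transcripts of a locus, transcripts taken singly, shares of the member sum and the omission of libraries with over 30% multiply aligned pairs were chosen after seeing the data. No interval for counting error can be given from FPKM, and the number of libraries, 5 per group, limits the precision.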

Additional observations from a re-analysis of the deposited data

Results flagged for a closer look

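Of the 296 sets of 5 libraries (37 genes in 8 groups), 30 held a library far from the others in FPKM, its gap to the nearest being over 0.71 of the range of the group. Chance gives about 1 in 20. In the control group, replicate 5 was low in 9 genes: SLC25A20 at 4.40, HADHB at 45.7, ECHS1 at 30.9, ECI2 at 15.0, ACAA1 at 24.1, EHHADH at 17.5, DECR2 at 8.89, ETFB at 43.3 and ACSL3 at 12.6. The 75th percentile of that library lay 0.48 below the control mean on the log2 scale. Control replicate 2 was low in PDK4 at 0.870, with 5.25 unnamed FPKM at the locus.

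At 1 µM PCB 126, replicate 1 was low in CPT1A at 0.782, SLC25A20 at 4.70, ACSL4 at 1.89, FABP1 at 1.10 and PDK4 at 0.761. The unnamed transcripts held 5.53 FPKM at CPT1A and 22.8 at ACSL4 in that library and 0 at FABP1. At 0.1 g/L glyphosate, replicate 2 was low in ACADVL at 63.4, HSD17B4 at 26.3, ETFDH at 6.04 and ACSL3 at 14.0.

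At 10 µg/L glyphosate, replicate 5 was low in CPT2 at 4.52 and ACSL5 at 10.7, and replicate 4 was high in ACOX2 at 1.13. In Roundup, replicate 5 was low in ACADL at 0.765 and ACAA2 at 9.84. At 100 pM PCB 126, replicate 1 was low in ACOX3 at 2.53 and ANGPTL4 at 0.781, and at 10 nM replicate 3 was low in ACSL5 at 12.5. At 1 mg/L glyphosate, DECR1 was low in replicate 2 at 43.2, ACSL5 was low in replicate 5 at 19.4, and ANGPTL4 was high in replicate 4 at 2.54. The part of library depth in these values was not tested.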

How the results depend on the processing

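Under the alternatives run, 0 of the tested members were called at 100 pM or 10 nM PCB 126, in any glyphosate or Roundup group, or between Roundup and glyphosate. Leaving out each library in turn called 0 members in all 9 comparisons. At 1 µM PCB 126, members called numbered 3 with an ordinary linear model and library-size term, 2 with quantile normalization, 1 with scaling to the 75th percentile, 2 with unnamed transcripts added and that scaling, 1 without the libraries with many multiply aligned pairs, and 1 with transcripts tested singly. In the trend over PCB 126 doses the counts under these settings were 2, 2, 2, 4, 1 and 1, and 1 without the libraries that stood apart. Each of these was 0 in the fit reported, and the cause was not tested. Scaling to the 75th percentile called 6.73% of all genes at 1 µM and 9.85% in the trend. With unnamed transcripts added as well, these shares were 11.5% and 15%. Of all transcripts tested singly, 0.552% and 0.906% were called. Shares of all genes under the other settings are not given here, so these counts are not read as a result about the members. ACSL5 at 1 µM reversed to −0.16 with genes represented by their most abundant transcript. CPT1A at 1 µM reversed to 0.0447 without the libraries that stood apart or without 1 µM replicate 1 alone, and to 0.0754 without the libraries with many multiply aligned pairs, and leaving out 1 library in turn gave −0.93 to 0.0447. The upstream ACSL5 transcript, ENST00000354655, singled out after its values were seen, passed at 1 µM in 11 of 11 alternatives, with 2.68 to 4.67. Of these, 1 with no filter on low values (limma adjusted p = 0.0419) and 1 with a pseudocount of 0.1 (limma adjusted p = 0.0401) came near the threshold. The transcript also passed with any 1 library left out (limma adjusted p = 0.00385 to 0.0279). With a replicate block by run of library numbers, 0 members were called in any comparison. The labels do not pair the libraries. Within a run, the median correlation of deviations was 0.040 to 0.10 for PCB 126 and control libraries. For herbicide and control libraries it was 0.025 to 0.22, and some pairs were negative in both. The best partner of each library was sought outside its own group. It was of the same run for 9 of 20 PCB 126 and control libraries and 18 of 25 herbicide and control libraries. The count expected without shared runs was not computed, so this is only a hint from the data and not from the design.

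The values are FPKM, which give no counts per gene, from 5 libraries per group that differ by up to 2.47-fold in the summed FPKM of the members. A gene that missed the threshold here was not shown to be unchanged.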
